A study of Zeugodacus cucurbitae with 6 samples.

Results

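The genes described here are Rh6, Rh4_1 and Arr1, the opsins and the arrestin that the deposited gene table of the melon fly *Zeugodacus cucurbitae* lists under a symbol. They were chosen by name and are 3 of the 12834 genes of the table, of which 1032 carry a symbol and the rest a number. Other opsins and arrestins may be listed under a number, or be missing for want of reads, and were not identified here. Reads came from 3rd instar larvae hatched from 25 h old eggs, with 0 Gy in the non-irradiated (control) group and 50 Gy of gamma rays from radioactive cobalt, at 1.0 Gy per minute, in the irradiated group. Each group had 3 libraries, and each library was a pool of 20 larvae reared on the same artificial diet. No dissection is described, so the eye is a small part of each pool, and fewer photoreceptors cannot be told apart from less RNA in each of them.

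Opsins are the light-catching receptors of photoreceptor cells. Light turns an opsin into an active form that starts the phototransduction cascade through a G protein, a phospholipase and cation channels, and arrestin then binds the active opsin and ends the signal. In *Drosophila*, Rh6 is made both in the larval eye, the small light-sensing organ of the larval head, and in inner photoreceptors of the adult compound eye, whereas Rh4 belongs to other inner photoreceptors of the adult eye and is not an opsin of the larval eye. Arr1 is one of the visual arrestins of *Drosophila*. These roles come from *Drosophila* and were not tested in the melon fly by these libraries. The comparison therefore asks how much RNA of Rh6 and of Rh4_1 the larvae carried, and whether irradiated and non-irradiated larvae differed in them. Which cells the Rh6 reads came from was not established.

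The libraries held between 13192748 and 18311658 counts on genes, so that 1 count was worth 0.0546 to 0.0758 CPM, the count scaled to the library total. Irradiated replicates 1 and 2 were far more alike than any other pair. The squared difference of their counts, in units of the counting variance, averaged 2.86 over genes, against 88.4 to 298 in the other 14 pairs, where counting noise alone gives about 1, so they differed by more than counting noise. They were kept as separate libraries, and results are also given with their counts summed into 1 library.

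Rh6 was clearly detected in every library. It had 92, 70 and 122 counts in non-irradiated replicates 1, 2 and 3 and 146, 180 and 94 counts in irradiated replicates 1, 2 and 3. In FPKM, which scales the counts by gene length and library total, this was 3.46, 2.46 and 3.70 in the non-irradiated libraries. The irradiated libraries had an FPKM of 4.21, 4.87 and 2.63. Irradiated replicate 3 lay within the range of the controls, and the other irradiated libraries lay above it. With a mean FPKM of 3.56 over the 6 libraries, Rh6 stood near the middle of the table, above 47.7% of all genes. The median gene had a mean FPKM of 4.06.

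Arr1 was present at a similar level. Without irradiation its counts were 48, 47 and 96. With irradiation they were 67, 83 and 73. The FPKM was 2.07, 1.89 and 3.34 without irradiation and 2.22, 2.58 and 2.34 with it. Non-irradiated replicate 3 was the highest of the 6 libraries, and the irradiated libraries all fell between it and the other controls. The mean FPKM of 2.41 placed Arr1 above 41.7% of all genes.

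Rh4_1 was close to the limit of detection. It had 1, 3 and 4 counts in non-irradiated replicates 1, 2 and 3, or an FPKM of 0.0298, 0.0835 and 0.0962. In irradiated replicates 1, 2 and 3 it had 0, 0 and 1 counts, and an FPKM of 0.0222 in the last. A floor of 3 counts, a one-sided limit for a count of 0, is an FPKM of 0.0686 in irradiated replicate 1 and 0.0644 in irradiated replicate 2. The two-sided 95% counting interval for the same 0 counts reaches further, to 0.0843 and 0.0792. The table held 0 genes with 0 counts in every library, so the shares given for Rh6, Arr1 and Rh4_1 are among genes with reads. Only 8.19% of the genes in the table had a lower mean FPKM than Rh4_1. Such sparse genes were common, since 1633 of the 12834 genes never exceeded 4 counts in any library.

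**Figure D1:**
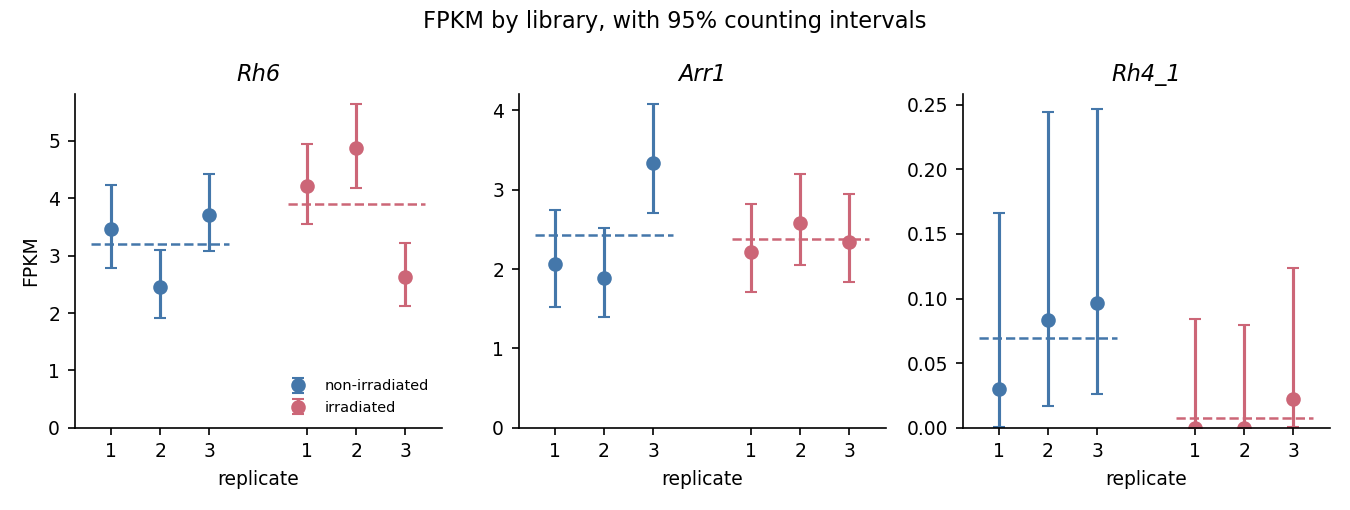
FPKM of Rh6, Arr1 and Rh4_1 in each library (points), with exact Poisson 95% counting intervals (bars) and group means (dashed lines), on a separate vertical axis for each gene. Rh6 lies between 2.46 and 4.87 and Arr1 between 1.89 and 3.34, while Rh4_1 does not exceed 0.0962.

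**Figure D2:**
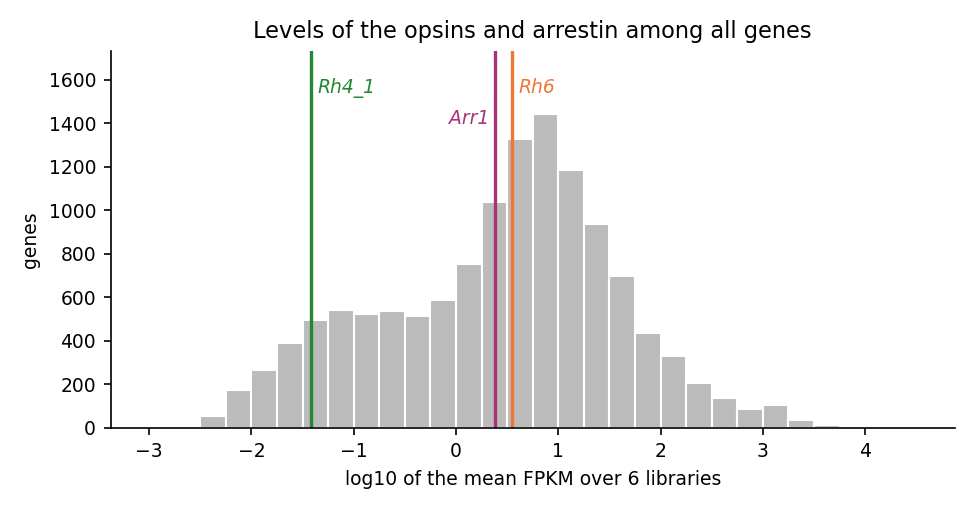
Number of genes by log10 of the mean FPKM over the 6 libraries, for all 12834 genes, with vertical lines at Rh6 (mean FPKM 3.56), Arr1 (2.41) and Rh4_1 (0.0386). Rh6 and Arr1 fall in the main body of the distribution and Rh4_1 in its low tail.

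Per length, the counts of Rh6 exceeded those of Rh4_1 by a wide margin. Over the 6 libraries Rh6 had 704 counts and Rh4_1 had 9, a ratio of 98.7 after division by gene length, with an exact binomial 95% interval of 51.7 to 217. In the non-irradiated libraries alone the ratio was 44.8 (interval 22.4 to 105). In the irradiated libraries it was 530 (interval 94.6 to 20980), which rests on 1 count of Rh4_1. These intervals cover counting error only. They take no account of the genes that overlap the span of Rh4_1, described below, which make its counts an uncertain measure of its RNA. Arr1 exceeded Rh4_1 by 66.6 times per length over the 6 libraries (interval 34.7 to 147).

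The order of Rh6 and Arr1 was the same in every library, although the margin was small. The FPKM of Rh6 was 1.67, 1.30 and 1.11 times that of Arr1 in non-irradiated replicates 1, 2 and 3. In irradiated replicates 1, 2 and 3 it was 1.90, 1.89 and 1.12 times that of Arr1. The mean log2 ratio of FPKM was 0.55 over the 6 libraries, and it was 0.47 with irradiated replicates 1 and 2 summed. This order was noticed in the data and is given as a description, with no test.

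Irradiation was not followed by a change in Rh6 that exceeded the spread between libraries. The TMM-normalized level was 6.40 ± 1.16 CPM without irradiation and 7.94 ± 2.40 CPM with it (SD over 3 libraries each), and the groups overlapped. On the log2 scale the irradiated libraries were higher by 0.31 (SE 0.27), and the adjusted p was 0.564 in the quasi-likelihood test of edgeR (Benjamini-Hochberg over 9768 genes). At this threshold of 0.05 edgeR called 2.14% of all tested genes higher. Its 95% interval ran from -0.32 to 0.93, or from 0.801-fold to 1.91-fold, so a moderate rise or a small fall was not detectable with 3 libraries a group. Of all genes tested, 60.1% had a log2 fold change of smaller size. The ratio of the summed normalized counts was 1.23, and its counting interval of 1.05 to 1.43 lay above 1, but counting error leaves out the differences between pools of larvae.

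The irradiated libraries disagreed on Rh6 beyond counting error. Normalized levels were 8.57, 9.95 and 5.29 CPM in irradiated replicates 1, 2 and 3. The 95% counting interval of replicate 3 (4.27 to 6.47 CPM) did not meet that of replicate 1 (7.24 to 10.1 CPM) or replicate 2 (8.55 to 11.5 CPM). The coefficient of variation among the irradiated libraries was 30.2%, where counting alone gives 8.45%, and it exceeded that of 89.7% of the 2949 tested genes with a mean FPKM within 2-fold of Rh6. Among the non-irradiated libraries it was 18.1%, against a median of 16.5% for the same genes. Without irradiated replicate 3, the log2 fold change of Rh6 was 0.53, with an unadjusted p of 0.0413 and an adjusted p of 0.280 from edgeR. With irradiated replicates 1 and 2 summed it was 0.20 (adjusted p = 0.813 from edgeR).

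Arr1 had nearly equal means in the groups, at 4.27 ± 1.46 normalized CPM without irradiation and 4.21 ± 0.340 with it (SD over 3 libraries each). Its log2 fold change of -0.03 (SE 0.26) had a 95% interval of -0.65 to 0.60, or 0.638-fold to 1.51-fold, which leaves room for a change of moderate size either way. The adjusted p in edgeR was 0.968. The controls of Arr1 were more spread than its irradiated libraries, a difference that was not tested. The likeness of irradiated replicates 1 and 2 over all genes limits this comparison of spread. Among the non-irradiated libraries the coefficient of variation of Arr1 was 34.1%, against a median of 19.3% for the 2472 tested genes with a mean FPKM within 2-fold of Arr1. Of those genes, 80.2% had a smaller one. Non-irradiated replicate 3 was at 5.95 CPM, with a counting interval of 4.82 to 7.26 that met neither that of replicate 1 (2.46 to 4.42) nor that of replicate 2 (2.59 to 4.68). The irradiated libraries were at 3.93, 4.59 and 4.11 CPM, and their coefficient of variation of 8.07% was below the 11.6% that counting alone gives and the median of 14.1% for the same genes, of which 25.5% had a smaller one. The direction of so small a difference was not stable. It was 0.30 on the log2 scale without non-irradiated replicate 3 (adjusted p = 0.404 from edgeR) and -0.18 without non-irradiated replicate 1.

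**Figure D3:**
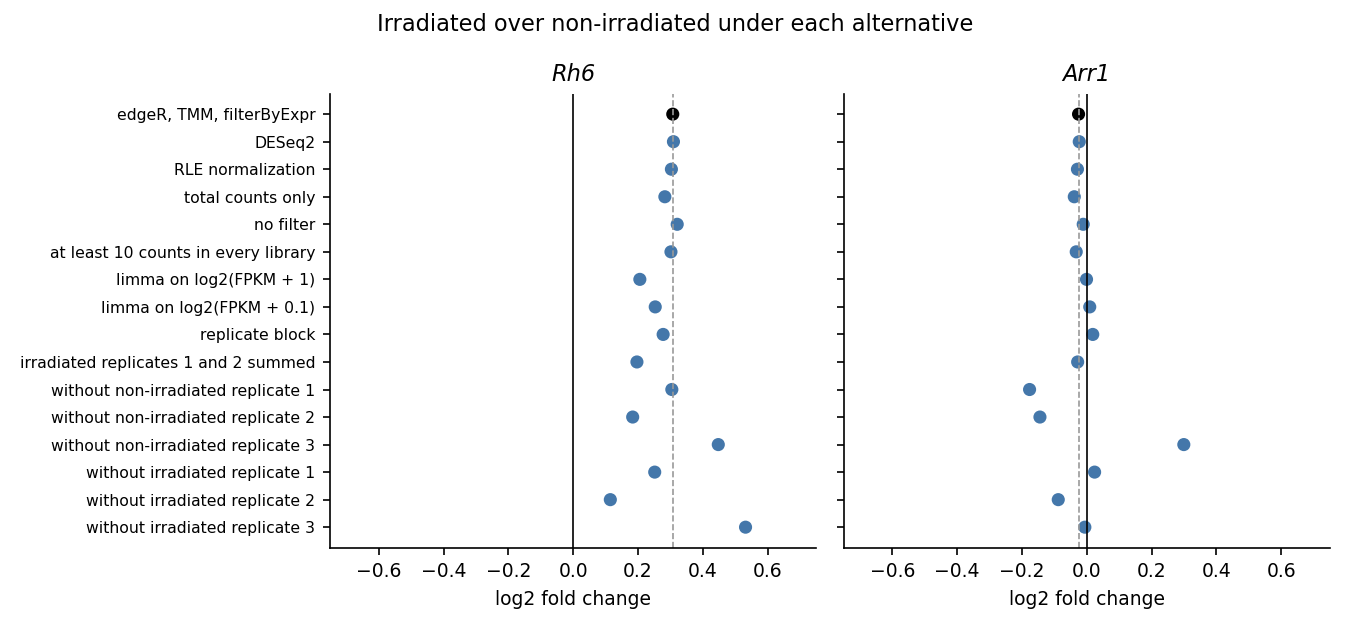
Log2 fold change of Rh6 and Arr1, irradiated over non-irradiated, in the edgeR fit (black) and under each alternative (blue), with the edgeR value as a dashed line. Rh6 stays above 0 at 0.11 to 0.53, Arr1 lies between -0.18 and 0.30 on both sides of 0, and the limma values are on a log2(FPKM + pseudocount) scale.

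The groups of Rh4_1 did not overlap, but the counts behind this were very few. Its lowest control had 1 count among 13192748 and its highest irradiated library had 1 count among 17701282. Among the 1633 genes with at most 4 counts in any library, 5.7% had groups that did not overlap and 4.16% had all irradiated libraries below all controls. The summed counts were 8 without and 1 with irradiation. Rh4_1 had too few counts for the filter, and in the same edgeR fit without a filter its adjusted p was 0.296 (unadjusted p = 0.0527), where edgeR called 2.93% of the 12834 genes. No fold change is given, since the mean count of both groups lay under the floor of 3.

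The balance of Rh6 and Rh4_1 was not shown to differ between the groups. With 0.1 added to each FPKM, the log2 ratio of Rh6 to Rh4_1 was 4.78, 3.80 and 4.28 in the non-irradiated libraries. It was 5.43, 5.64 and 4.48 in the irradiated libraries, which overlapped the controls through irradiated replicate 3. The difference of the means was 0.90 (p = 0.2 and 0.4 after Benjamini-Hochberg adjustment over the ratios compared, two-sided exact permutation test, where 0.1 is the smallest p that 3 libraries against 3 allow). Since Rh4_1 was at or near 0, the size of this ratio follows the added constant. The difference was 0.29 with 1 added and 2.57 with 0.01 added. The log2 ratio of Rh6 to Arr1 differed by 0.25 between the groups (p = 0.5 in the same exact test, also after adjustment), and these 2 ratios were the only ones compared between groups. With 1 library left out, this second difference ranged from 0.11 to 0.50.

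**Figure D4:**
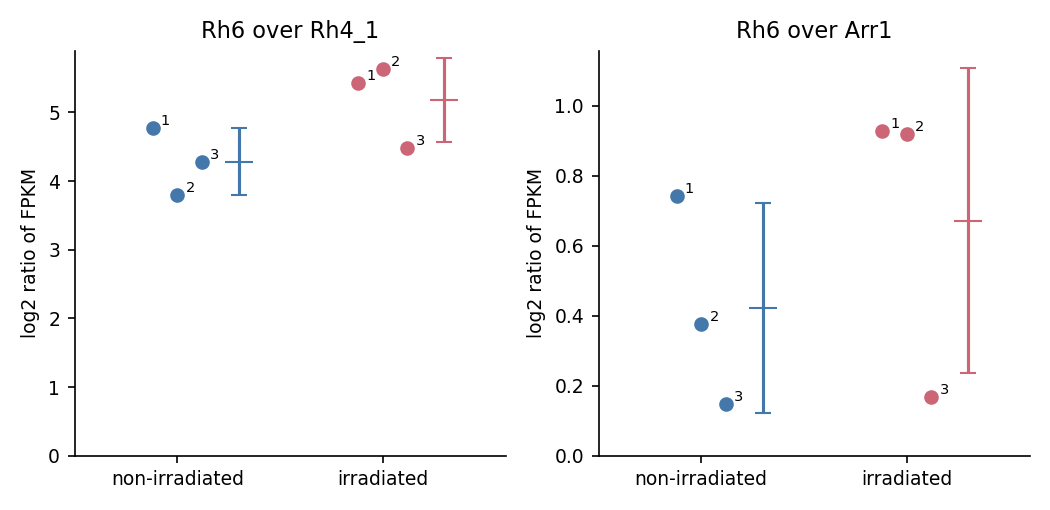
Log2 ratio of FPKM within each library, Rh6 over Rh4_1 with 0.1 added to each (left) and Rh6 over Arr1 (right). Points are libraries numbered by replicate, and the bars beside them give the mean and SD of each group. In both panels irradiated replicate 3 falls among the controls, at 4.48 and 0.17.

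Few other genes of the light response could be followed by symbol. The lists searched held 8 symbols of opsins, 3 of arrestins and 37 of phototransduction, and only Gprk1_0 was found beside Rh6, Rh4_1 and Arr1. Gprk1 is a kinase that acts on active rhodopsin in *Drosophila*. Its normalized level was 25.9, 24.1 and 28.8 CPM without irradiation and 34.9, 32.2 and 30.4 CPM with it, so that every irradiated library lay above every control. Groups that do not overlap were found for 28.4% of all tested genes. For Gprk1_0 the log2 fold change was 0.31 (SE 0.12), and the adjusted p of 0.192 from edgeR did not pass 0.05. Thus 0 of the 3 tested light-response genes passed an adjusted p of 0.05 with edgeR, against 3.74% of all tested genes. At an unadjusted p under 0.05 there was 1, Gprk1_0, against 21.0% of all tested genes, and DESeq2 also gave 0 at its adjusted p.

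Relatives of arrestin gave a mixed picture. The table holds 3 genes named Arrdc3, for arrestin domain containing proteins, which belong to the wider arrestin family but are not visual arrestins, and this name was added to the lists after the symbols of the table had been read. Arrdc3_1 (mean FPKM 51.0) and Arrdc3_3 (39.0) were far above Arr1, and Arrdc3_2 (2.95) was close to it. None of the 3 passed an adjusted p of 0.05 in edgeR. The smallest was that of Arrdc3_3, with an FPKM of 33.9 ± 4.03 against 44.0 ± 3.79 (SD over 3 libraries each), a log2 fold change of 0.39 and an adjusted p of 0.128 from edgeR.

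Among the few eye-formation symbols that were found, Optix passed the test. Optix is a homeobox transcription factor that takes part in eye formation in *Drosophila*, and it also acts in other imaginal discs. Its counts were 65, 55 and 61 without irradiation but 16, 15 and 12 with it, a level of 4.14 ± 0.369 against 0.815 ± 0.133 normalized CPM (SD over 3 libraries each). Every irradiated library was far below every control, at a log2 fold change of -2.34 (SE 0.25). The adjusted p in edgeR was 0.00989. Optix also had an FPKM above 1.0 in a library and a log2 fold change beyond 0.58 in size at an unadjusted p under 0.05, as did 5.58% of all tested genes in the lower direction. With irradiated replicates 1 and 2 summed the log2 fold change was -2.38 and the adjusted p rose to 0.0559 in edgeR. It was 0.0558 and 0.0571 without irradiated replicate 1 or 2.

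The list of 40 symbols for retinal determination and photoreceptor fate matched 4 genes in all, and 1 of the 4, Optix, passed the adjusted p, where 1.6% of all tested genes passed it in the lower direction. The list was chosen with earlier results of these data known, so this count is a description only. The receptor gene Egfr_1 had a log2 fold change of -0.21 (adjusted p = 0.679 from edgeR), with overlapping groups. Chp and Gl had log2 fold changes of -0.41 and 0.36, and adjusted p of 0.172 and 0.159 from edgeR, although the groups of neither overlapped, as for 28.4% of all tested genes. For the 21 symbols of histamine transmission and eye pigment, W and T_5 were found, with log2 fold changes of -0.16 and 0.18 (adjusted p of 0.773 and 0.700 from edgeR). The table writes every symbol with a capital, so Chp, Gl, W and T_5 can each be read as more than one *Drosophila* gene, and no role is given to them here. The deposited FPKM of Chp implies a gene length of 822 bases.

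**Figure D5:**
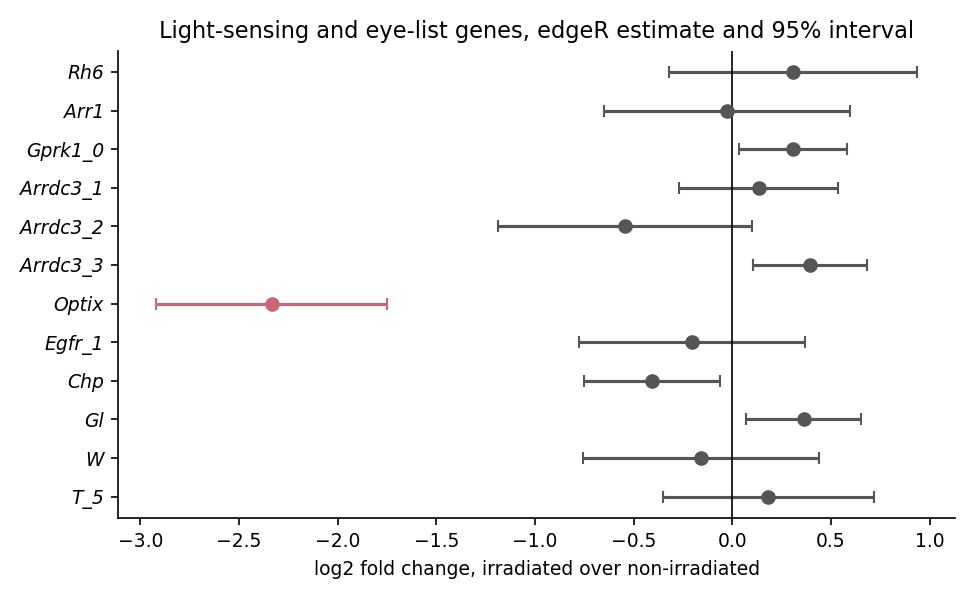
Log2 fold change, irradiated over non-irradiated, with 95% intervals from edgeR, for the members that passed the count filter, the kinase Gprk1_0, the Arrdc3 genes and the genes matched by the eye lists. Optix, in red, is the one gene with an adjusted p under 0.05. The intervals of Rh6 and Arr1 include 0.

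Photoreceptors are neurons, so the library pattern of Rh6 was set beside genes with neural symbols, taken by name alone. Of 14 tested genes with neural symbols, 11 of which were added to the list after the symbols of the table had been read, 11 had their lowest irradiated level in replicate 3 (78.6%, against 41.0% of all tested genes). 8 had their lowest control in replicate 2 (57.1%, against 31.4%). Both held for Rh6 and for 6 of these genes (42.9%, against 14.3% of all tested genes), namely Appl_2, Nmdar1, Pdfr, Sv2b_3, Sv2c_0 and Syt1_0. The last of these, Syt1_0, whose *Drosophila* counterpart is the calcium sensor of synaptic vesicles, had 19, 8 and 29 counts without irradiation and 30, 19 and 4 with it, and was named after its values were seen, as was Sv2b_3. Sv2b_3, named for a synaptic vesicle protein, had 85, 47 and 106 counts against 126, 104 and 46. The match to Rh6 was of order only and took no account of size. The pattern was read from Rh6 in these same libraries, and 11 of the 14 genes were added later. The shares are therefore a description and test nothing. Sv2c_0 had 470.7, 461.6 and 1435 normalized CPM in non-irradiated replicates 1, 2 and 3. Its mean FPKM over the 6 libraries was 158, far above the genes named with it, which had 0.280 (Nmdar1) to 4.80 (Pdfr). Syb_1, a tested neural symbol outside that group, was also high, at 126. A name alone does not show that the reads of Sv2c_0 came from neurons, and their source was not tested. Nmdar1 rested on 20, 15 and 23 counts without irradiation and 9, 17 and 7 with it. Other neural symbols went the other way, and Nrg (63.4, 58.9 and 77.0 normalized CPM in irradiated replicates 1, 2 and 3) and Rop_1 (100.5, 97.6 and 104 normalized CPM) were highest in irradiated replicate 3. The tested muscle genes, 4 in number, were likewise all lowest in irradiated replicate 3 of the irradiated libraries, against 41.0% of all tested genes. Of the 4, 0 had their lowest control in non-irradiated replicate 2, against 31.4% of all tested genes. So few genes cannot show whether muscle differed from the neural symbols. The part of tissue content in the pattern of Rh6 was not tested. Of 21 neural genes found, 14 had enough counts to be tested, and none passed an adjusted p of 0.05 in edgeR. At an unadjusted p under 0.05 in edgeR there were 6 (1 higher and 5 lower), or 42.9% against 21.0% of all tested genes. Of these, Rab3 (22, 18 and 21 counts without irradiation, 4, 14 and 0 with it) and Nmdar1 passed the count filter through their controls. The median log2 fold change of the 14 was -0.33, against -0.01 for all 9768 tested genes, but it was -0.03 for the 11 added later. With a list chosen in this way, no change of neural genes is read from these values.

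Rh6 and Arr1 did not follow each other closely. Their Pearson r on log2(normalized CPM + 0.5) over the 6 libraries was 0.446, a description only, since irradiated replicates 1 and 2 are nearly alike. Among 929 other tested genes with a symbol, 178 had a higher r with Rh6 than Arr1 did. The genes most like Rh6 were Fbxl20_1 (r = 0.969), Tret1_24 (r = 0.958) and Smg1_0 (r = 0.936). Those most like Arr1 were Zdhhc14_1 (r = 0.973), Gld_3 (r = 0.947) and Spt5 (r = 0.916). With so many genes and 6 libraries, high values of r are to be found for any pattern. Tret1_24 shared with Rh6 its low non-irradiated replicate 2 and irradiated replicate 3, at 9.82 and 11.3 normalized CPM, where its other libraries had 14.9 to 22.5. Gld_3 shared with Arr1 the high non-irradiated replicate 3, at 3.66 normalized CPM against 0.375 to 0.885 elsewhere.

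The surroundings of the genes bear on how their reads could be counted. In the gene table of assembly idZeuCucr1.2, which is not the build that the authors aligned to, all 3 genes were found by symbol, and Arr1 overlapped no other gene. The span of Rh6 overlapped LOC105221544, which had 0 counts in every library except for 2 in irradiated replicate 2. The span of Rh4_1, annotated with 3 transcripts, overlapped LOC105211544 and LOC105211547. LOC105211544 had 3942 to 5870 counts in the 6 libraries and LOC105211547 had 436 to 722. Neither passed the test, with log2 fold changes of 0.05 and 0.01 and adjusted p of 0.855 and 0.981 from edgeR. The paper describes no step that marks strand in its library preparation. Whether the counting used strand is not given in the sources used here. Without strand, reads from a stretch shared by overlapping genes cannot be told apart. The few counts of Rh4_1 are therefore an uncertain measure of its RNA.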

How the data were processed

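RNA of whole larval pools (1.5 µg per library) was sequenced from poly-A selected libraries with 150 bp paired-end reads. The authors cleaned the reads, aligned them with HISAT2, counted them per gene with HTSeq (version 0.6.1p2 in the submitters' processing notes, while the methods name another), and deposited raw, unnormalized counts per gene. FPKM values were deposited too, made from these counts, the library totals and 1 length per gene (the lengths implied by the 6 libraries differed by at most 1.18e-13 in relative terms). Groups were taken from the sample titles.

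The deposited counts were fitted with edgeR 4.0.16 in R 4.3.3 (TMM, filterByExpr, robust prior, glmQLFit, glmQLFTest) over the whole table, with Benjamini-Hochberg adjustment. Rh4_1 fell below the filter and was read from the same fit without one. Standard errors are the size of the log2 fold change over the square root of F. Alternatives were DESeq2 1.42.0, limma 3.58.1 on log2(FPKM + 1) and log2(FPKM + 0.1), other normalizations and filters, a replicate block, each library left out, and irradiated replicates 1 and 2 summed. FPKM ratios were compared by exact permutation tests. The scripts were tested on simulated data.

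The members and gene lists were chosen with earlier results of these data known. Named were the members, list genes found among the opsins and arrestins, list genes of the eye and light response, and the 3 symbols most like each tested member over the 6 libraries. Lists matched symbols without regard to case or to a number at their end. No symbol of 6 for glia or 9 for haemocytes was found, and 1 of 6 for fat body (Adh_3, log2 fold change 0.00). The reference table held 11831 of the 12834 identifiers. No coordinates are given, since its build differs. Sequences of the genes were not used here.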

Additional observations from a re-analysis of the deposited data

How the results depend on the processing

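The log2 fold change of Rh6 kept its sign and its adjusted p above 0.05 in all 15 alternatives (0.11 to 0.53, adjusted p 0.280 to 0.893), with 0.11 and 0.53 as the lowest and highest values when 1 library was left out. For Rh4_1 the adjusted p stayed between 0.278 and 0.568 in 13 alternatives, and with at least 10 counts in every library it could not be tested. For Arr1 the sign turned in 4 of 15 alternatives, to 0.0093 with limma on log2(FPKM + 0.1), to 0.019 with the replicate block, to 0.30 without non-irradiated replicate 3 and to 0.024 without irradiated replicate 1. Over the libraries left out in turn Arr1 ranged from -0.18 to 0.30, and no adjusted p fell below 0.404. The count of light-response genes past the adjusted p stayed at 0 in every alternative run. The count of eye-formation genes fell from 1 to 0 with irradiated replicates 1 and 2 summed, and lay between 0 and 1 with 1 library left out, being 0 without irradiated replicate 1 or 2. The cause was not tested. The mean log2 ratio of Rh6 to Arr1 was 0.47 with the pair summed and 0.47 to 0.63 with a library left out, settings chosen after seeing the data. The difference of the log2 ratio of Rh6 to Rh4_1 between groups was 0.66 to 1.25 with 1 library left out, 0.73 with the pair summed and 1.48 on normalized CPM. That of Rh6 to Arr1 was 0.11 to 0.50 with 1 library left out. No adjusted call of a member depended on any setting.

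Same-numbered libraries did not deviate together (correlations of -0.01, -0.10 and -0.15 for replicates 1, 2 and 3). With 3 libraries a group, and irradiated replicates 1 and 2 nearly alike, this cannot settle whether the numbers pair the samples. With the replicate block, Rh6 had a log2 fold change of 0.28 (adjusted p = 0.711 from edgeR), and 54 genes were higher and 35 lower at an adjusted p under 0.05, against 209 and 156 without it. Over all genes, DESeq2 gave 554 higher and 480 lower, and limma on log2(FPKM + 1) 118 and 66. In edgeR there were 20 and 5 when the pair was summed, 18 and 3 when irradiated replicate 1 was left out, 22 and 5 when irradiated replicate 2 was, 95 and 43 when irradiated replicate 3 was, and 151 and 90 when non-irradiated replicate 3 was. Without non-irradiated replicate 2 the balance turned, with 120 higher and 154 lower.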
